A study of Mus musculus with 23 samples.

Results

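The glycogen genes examined here are 9 mouse genes that make, prime, branch and break down muscle glycogen or regulate those steps, namely Gys1, Gyg, Gbe1, Ugp2, Ppp1r3a, Ppp1r3c, Pygm, Phkg1 and Phkb. They were chosen by name and matched by symbol to the Ensembl gene IDs of the count matrix, where all 9 were found among 55573 gene IDs and all 9 passed the filter on low counts that left 13049 genes for testing. RNA came from the quadriceps, the large thigh muscle, of C57BL/6J mice of both sexes (strain C57Bl6 in the labels), 8 to 10 weeks old, that had carried a slow-release pellet under the skin for 14 days and were fasted for 5 hours. The pellet held 50 mg corticosterone, the main glucocorticoid of mice, with 50 mg cholesterol, or 100 mg cholesterol alone as vehicle. There were 6 vehicle-treated females, 5 corticosterone-treated females, 6 vehicle-treated males and 6 corticosterone-treated males, each mouse named by the letter of its sex and its number. No genotype or transgene separates the groups, and whether the sexes were processed as 1 batch is not given in the sources used here, so that a batch and sex cannot be told apart in any comparison of males with females.

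Glycogen is the glucose store of muscle. Ugp2 makes UDP-glucose, glycogenin (Gyg) starts the chain, glycogen synthase (Gys1) lengthens it and the branching enzyme (Gbe1) adds branch points, while muscle phosphorylase (Pygm) releases glucose units again. Phosphorylase kinase, with Phkg1 as its catalytic and Phkb as a regulatory subunit, switches phosphorylase on, and the glycogen-targeting subunits Ppp1r3a and Ppp1r3c bring protein phosphatase 1 (PP1) to glycogen, where it activates the synthase and switches phosphorylase off. Glucocorticoids are known to raise glycogen in liver and to alter glucose handling in muscle.

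Each mouse had between 20904150 and 21984477 read pairs counted on genes. The summed level of 7 muscle markers ranged from 70529 counts per 1000000 (CPM) in F10 to 184759 CPM in M4, with none at 0, as for the labelled tissue. In the 4 groups, the sums of 6 adipocyte markers reached 4147 CPM and the sums of 7 hepatocyte markers reached 2450 CPM, both with wide ranges between mice. Of these 13 markers only leptin (Lep) was at 0 in a mouse, a vehicle-treated female. In females Lep was the 1 adipocyte marker past the threshold, with 3.20 to 660.1 CPM in the treated mice and at most 4.25 CPM with vehicle (log2 fold change 6.79, adjusted p = 0.000284, edgeR), while the other 5 had changes from -0.77 (Cfd, adipsin) to 2.69 (Cidec). Values of the glycogen genes are given as CPM, scaled by the library's TMM normalisation factor, and differences as log2 fold changes with their standard errors (SE) from edgeR's quasi-likelihood test. Adjusted p-values are Benjamini-Hochberg values over all 13049 genes with a threshold of 0.01. In bulk muscle, fewer cells of a type and less RNA per cell cannot be told apart.

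Divided by the length of the merged exons in kilobases, Pygm had by far the highest level of the 9 genes, with 2564 ± 371 CPM per kb (SD, n = 6) in vehicle-treated males and 2394 ± 500 CPM per kb (SD, n = 6) in vehicle-treated females. Ugp2 and Gyg followed with 208 ± 42.3 and 206 ± 16.9 CPM per kb in vehicle-treated males, which did not differ beyond their spread. Ppp1r3c (140 ± 49.3), Gys1 (103 ± 13.8) and Phkg1 (99.1 ± 15.7) formed a middle group whose spreads overlapped. Phkb stood at 72.8 ± 8.50, Ppp1r3a at 39.3 ± 3.11 and Gbe1, the lowest, at 7.78 ± 2.76 CPM per kb in the same 6 males. With corticosterone, Ppp1r3c became the second highest in males at 626 ± 190 CPM per kb (SD, n = 6). Gbe1 remained the lowest in every group, at 19.0 ± 3.05 CPM per kb in corticosterone-treated females (SD, n = 5) and 14.5 ± 4.34 in corticosterone-treated males (SD, n = 6).

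**Figure D1:**
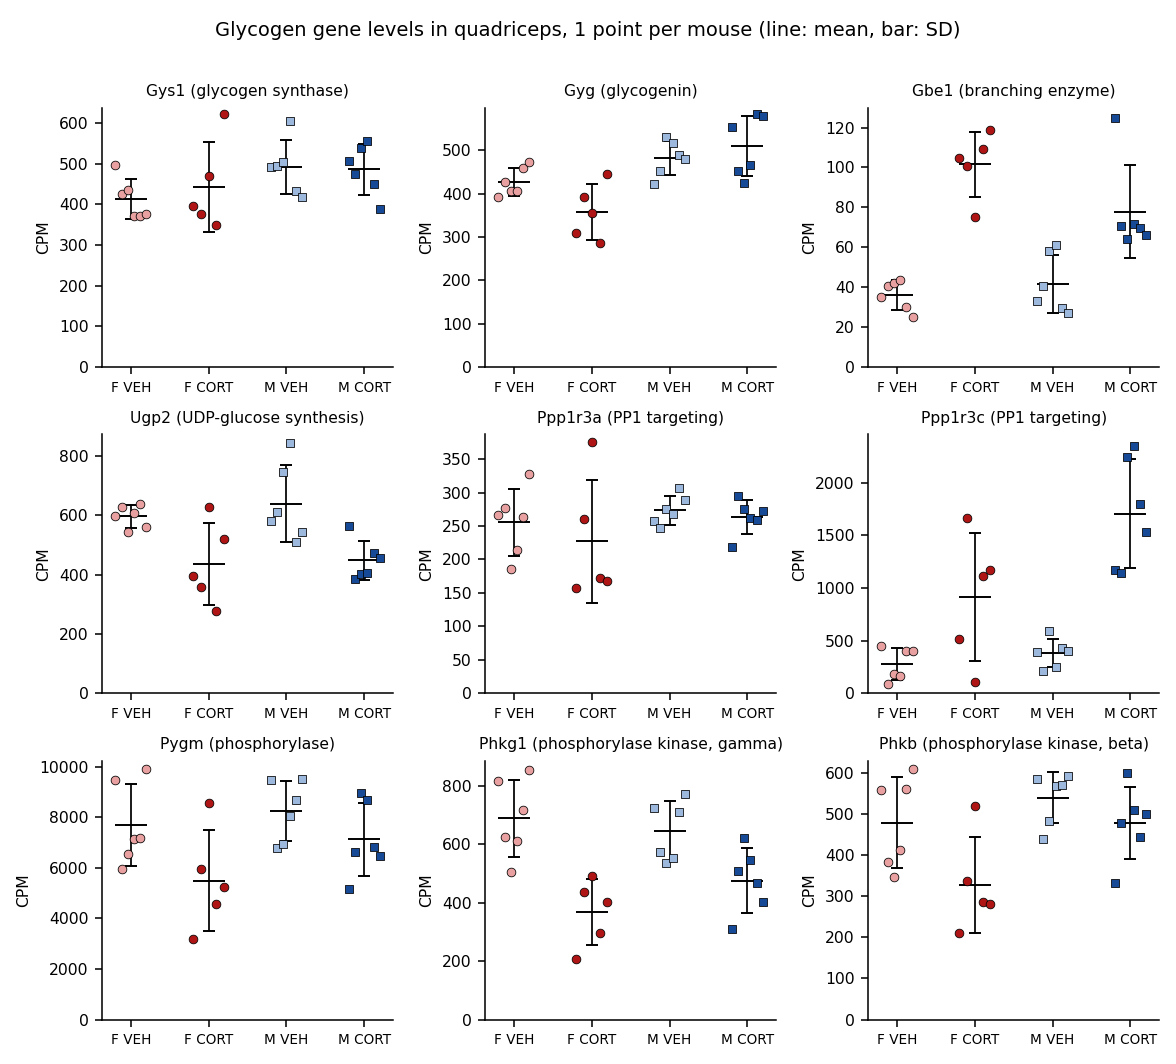
Level of each of the 9 glycogen genes in CPM (vertical axis, from 0) in every mouse, with 1 point per mouse, the group mean as a line and the SD as a bar, for vehicle (VEH) and corticosterone (CORT) in females (F) and males (M). Gbe1 of corticosterone-treated mice lay above that of vehicle-treated mice in both sexes, Ppp1r3c did so in males, and 1 corticosterone-treated female lay at 109.8 CPM of Ppp1r3c, within the vehicle range.

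The first comparison asked which glycogen genes corticosterone changed in each sex. In males, Ppp1r3c and Gbe1 rose. These 2 of 9 stand beside 26.3% of all tested genes past the threshold in males, 1720 of them higher and 1706 lower, so that the number of calls was near that of genes in general. In females, Gbe1 rose and Phkg1 fell, again 2 of 9, beside 13.4% of all tested genes, 965 being higher and 783 lower. The median log2 fold change of the 9 genes was -0.05 in males, where all tested genes had a median of -0.02, and -0.25 in females, where that of all tested genes was 0.04. The treated and untreated groups did not overlap for Gbe1 and Ppp1r3c in males and for Gbe1 and Phkg1 in females, while groups that did not overlap made up 21.9% of all tested genes in males and 7.72% in females.

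**Figure D2:**
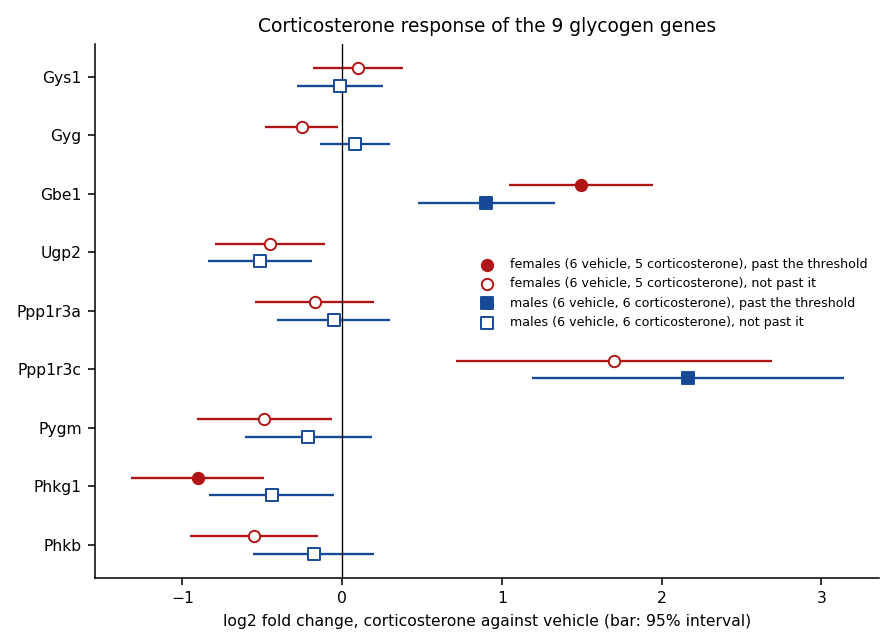
Log2 fold change of each glycogen gene with corticosterone against vehicle (horizontal axis) in females (circles, 6 vehicle and 5 corticosterone) and males (squares, 6 and 6), with 95% intervals as bars and filled symbols where the adjusted p was under 0.01. Gbe1 is filled in both sexes, Ppp1r3c in males and Phkg1 in females, while Ppp1r3c in females, at 1.70, is open.

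The sequences before the starts of Gbe1, Ppp1r3c and Phkg1 are shown. These are the glycogen genes past the threshold for corticosterone against vehicle in a sex, 2 with a rise and 1 with a fall. RefSeq promoters on GRCm38.p6 matched all 9 genes, in 10 windows of 250 bases before to 50 bases after a start, and the 250 bases before the start are printed 5′ to 3′ on the strand of the gene, with matches to 6 searched motifs in capitals.
Gbe1, chr16:70313699-70313948, plus strand: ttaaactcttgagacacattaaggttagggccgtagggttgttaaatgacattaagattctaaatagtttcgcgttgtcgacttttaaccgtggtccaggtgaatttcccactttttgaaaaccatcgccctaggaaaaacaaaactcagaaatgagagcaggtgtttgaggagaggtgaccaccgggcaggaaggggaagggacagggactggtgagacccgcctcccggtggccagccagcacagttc
Ppp1r3c, chr19:36736605-36736854, minus strand: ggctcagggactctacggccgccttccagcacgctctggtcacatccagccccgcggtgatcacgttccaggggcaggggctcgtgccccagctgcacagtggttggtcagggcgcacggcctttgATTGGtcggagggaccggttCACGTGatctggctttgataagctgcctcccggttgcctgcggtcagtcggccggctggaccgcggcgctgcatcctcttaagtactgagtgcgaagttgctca
Phkg1, chr5:129879089-129879338, minus strand: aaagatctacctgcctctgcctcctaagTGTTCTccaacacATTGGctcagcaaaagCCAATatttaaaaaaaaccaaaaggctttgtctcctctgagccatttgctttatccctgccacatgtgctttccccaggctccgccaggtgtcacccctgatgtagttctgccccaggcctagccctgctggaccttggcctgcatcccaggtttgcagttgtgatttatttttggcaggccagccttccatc
The motifs were searched on both strands: the glucocorticoid receptor palindrome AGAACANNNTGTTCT, its half-site AGAACA (which the palindrome contains), the FoxO element GTAAACA, the E-box CACGTG, the TATA box TATAAA and the CCAAT box CCAAT. The Ppp1r3c window held the E-box 104 to 99 bases before the start and a CCAAT box on the opposite strand 124 to 120 bases before it, and another lay 36 to 40 bases after it. The Phkg1 window held the half-site on the opposite strand 222 to 217 bases before the start and CCAAT boxes at 209 to 205 and 193 to 189 bases before it and at 42 to 46 bases after it. The Gbe1 window held none of these letters. The palindrome was found in 0 of the 10 windows and in 0.00913% of 32851 promoters of the same length. Of those promoters, 19.0% held the half-site, 3.65% the FoxO element, 7.15% the E-box, 13.6% the TATA box and 37.4% the CCAAT box. These matches describe letters only, and the data hold no measurement of binding.

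Gbe1 (ENSMUSG00000022707, chr16:70313949-70569716 on mm10, plus strand) forms the branch points that make glycogen compact and soluble. In females its level ranged from 25.1 to 43.6 CPM with vehicle (median 37.7). The 5 corticosterone-treated females had 104.7 CPM (F10), 100.6 CPM (F2), 75.2 CPM (F4), 109.4 CPM (F6) and 118.7 CPM (F8). Every treated female lay above every vehicle-treated female. The log2 fold change was 1.49 (SE 0.22, adjusted p = 6.39e-05, edgeR), or 2.82-fold. In males the level ranged from 27.0 to 61.1 CPM with vehicle (median 36.8) and from 64.3 to 124.8 CPM with corticosterone (median 70.0). All 6 treated males again lay above all 6 vehicle-treated males, M10 being far above the other treated males. The log2 fold change in males was 0.90 (SE 0.21, adjusted p = 0.00157, edgeR), and without M10 it was 0.72 with an adjusted p of 0.00547. The male minus the female response was -0.59 on the log2 scale and did not pass the threshold (95% interval -1.21 to 0.02, adjusted p = 0.172, edgeR).

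Other markers moved with treatment in these mice. The summed level of 4 erythrocyte markers was 80.9 to 383.6 CPM in vehicle-treated and 284.5 to 573.5 CPM in corticosterone-treated females, and 100.1 to 196.8 CPM and 183.0 to 641.7 CPM in the males. Over all 23 mice Gbe1 followed the mean log2 CPM of these 4 markers with r = 0.83, and over deviations from group means with r = 0.52. Phkg1 had r = -0.74 and -0.40 with it. The summed level of 4 fibroblast markers was 722.6 to 1045 CPM in vehicle-treated and 302.0 to 463.2 CPM in corticosterone-treated males, without overlap, and 636.3 to 1369 CPM and 461.1 to 853.3 CPM in the females. Ppp1r3c had r = -0.80 with the mean log2 CPM of these 4 markers over all mice and -0.47 over deviations from group means. Gbe1 had r = -0.54 and -0.15 with it. None of these 8 markers was at 0 in a mouse, and their part in the responses of the glycogen genes was not tested.

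Ppp1r3c (ENSMUSG00000067279, chr19:36731731-36736653 on mm10, minus strand), also called protein targeting to glycogen, is the PP1 subunit found in many tissues. In males it had between 213.1 and 588.0 CPM with vehicle (median 398.5) and between 1145 and 2349 CPM with corticosterone (median 1667). The groups did not overlap, and the log2 fold change was 2.16 (SE 0.47, adjusted p = 0.000977, edgeR), or 4.48-fold. In females it ranged from 88.0 to 450.9 CPM with vehicle (median 293.7). The treated females had 1669 CPM (F2), 1172 CPM (F8), 1114 CPM (F6), 516.0 CPM (F10) and 109.8 CPM (F4). Of the 5, 4 lay above every vehicle-treated female and F4 lay within the vehicle range. The log2 fold change in females was 1.70 (SE 0.48, adjusted p = 0.0119, edgeR), just short of the threshold, and without F4 it was 1.99 with an adjusted p of 0.000762. Without F2 the adjusted p was 0.0473 in edgeR, the highest with a single mouse left out. DESeq2 on all mice gave 1.69 with an adjusted p of 0.00380. The difference between the sexes in this response was 0.46 (male minus female, 95% interval -0.89 to 1.82, adjusted p = 0.652, edgeR).

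Because F4 stood apart, 4 genes known to respond to glucocorticoids were read in the same mice, chosen after the values of Ppp1r3c were seen. Fkbp5, a chaperone gene induced by the receptor, had 207.3 CPM in F4, between the 148.8 and 278.1 CPM of the lowest and highest treated females and above the highest vehicle-treated female, at 48.4 CPM. Zbtb16, a transcription factor gene, had 53.1 CPM in F4, where vehicle-treated females had 40.0 to 111.2 CPM and the next lowest treated female 93.6 CPM. Tsc22d3 (GILZ) had 87.8 CPM in F4, below the vehicle range of 99.2 to 202.9 CPM, and Klf15 had 49.1 CPM, within the vehicle range of 44.5 to 64.8 CPM. In F4, then, Fkbp5 was at the level of the treated females while Ppp1r3c, Zbtb16, Tsc22d3 and Klf15 were not above the vehicle-treated females. Of the 4 response genes, only Fkbp5 passed the threshold in females with F4 included (log2 fold change 3.05, adjusted p = 1.77e-06, edgeR). Zbtb16 (adjusted p = 0.0222), Tsc22d3 (0.119) and Klf15 (0.0774) did not in edgeR, so vehicle-level values of these genes are a weak sign of a missing response. Gbe1 of F4 was the lowest of the treated females, yet at 75.2 CPM above all vehicle-treated females.

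**Figure D3:**
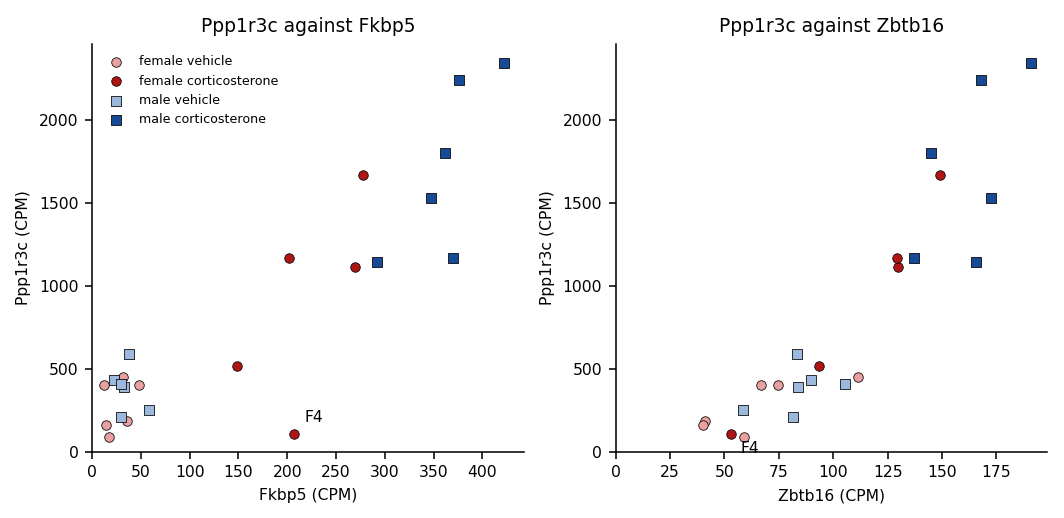
Ppp1r3c level in CPM (vertical axis) against Fkbp5 (left) and Zbtb16 (right) in CPM, with 1 point per mouse coloured by group and circles for females. F4 has 207.3 CPM of Fkbp5, as other treated females, but 109.8 CPM of Ppp1r3c and 53.1 CPM of Zbtb16, among the vehicle-treated mice.

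Ppp1r3a (ENSMUSG00000042717, chr6:14713977-14755274 on mm10, minus strand), the PP1 subunit particular to striated muscle, did not pass the threshold in either sex. It ranged from 246.7 to 306.0 CPM in vehicle-treated and 218.6 to 295.3 CPM in corticosterone-treated males, with a log2 fold change of -0.05 (95% interval -0.41 to 0.30, adjusted p = 0.828, edgeR). In females it was -0.17 (95% interval -0.54 to 0.20, adjusted p = 0.513, edgeR), with F4 at 375.0 CPM, the highest mouse of the 23, and the other treated females between 157.9 and 260.2 CPM. Of the summed level per kb of the 5 targeting subunits that passed the filter (Ppp1r3a to Ppp1r3e), Ppp1r3c made up 75.8 ± 5.995% in vehicle-treated and 93.5 ± 1.88% in corticosterone-treated males (SD, n = 6 each), with no overlap between 67.9 to 83.9% and 90.4 to 95.5%. In females the share was 68.4 ± 13.6% (SD, n = 6) with vehicle and 81.8 ± 22.7% (SD, n = 5) with corticosterone, where F4 had 41.4% and the highest treated female 94.1%.

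The genes of chain formation did not pass the threshold in either sex. Gys1 (ENSMUSG00000003865, chr7:45434844-45456619 on mm10, plus strand) had 418.9 to 605.6 CPM in vehicle-treated and 388.1 to 557.3 CPM in corticosterone-treated males, a log2 fold change of -0.02 (95% interval -0.28 to 0.25, adjusted p = 0.935, edgeR). In females its change was 0.10 (95% interval -0.18 to 0.38, adjusted p = 0.631, edgeR), with F8 the highest mouse at 622.8 CPM, and the sign of this small value in either sex turned when single mice were left out. Gys1 shares 6.47% of its exon bases with Ruvbl2 on the opposite strand, which counting by strand keeps apart. Gyg (ENSMUSG00000019528, chr3:20122084-20155317 on mm10, minus strand) had 423.4 to 530.7 CPM with vehicle and 425.4 to 582.9 CPM with corticosterone in males, a log2 fold change of 0.08 (SE 0.11, adjusted p = 0.566, edgeR). In females it had 392.0 to 472.6 CPM with vehicle and 286.9 to 446.1 CPM with corticosterone, a log2 fold change of -0.25 (SE 0.11, adjusted p = 0.0949, edgeR), and 4 of 5 treated females lay below the vehicle mean.

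Ugp2 (ENSMUSG00000001891, chr11:21321138-21371201 on mm10, minus strand) had lower values with corticosterone in both sexes without passing the threshold. Vehicle-treated males had 508.8 to 844.8 CPM (median 596.7) and corticosterone-treated males 386.3 to 562.3 CPM (median 432.0), with only M10 of the treated males inside the vehicle range. The log2 fold change was -0.51 (SE 0.16, adjusted p = 0.0131, edgeR), and DESeq2 gave -0.51 with an adjusted p of 0.00634. Vehicle-treated females had 543.1 to 638.7 CPM, while the treated females had 278.5 CPM (F6), 357.3 CPM (F2), 396.8 CPM (F10), 521.8 CPM (F8) and 627.0 CPM (F4). Again F4 alone lay inside the vehicle range, and the log2 fold change was -0.45 (SE 0.17, adjusted p = 0.0490, edgeR), or -0.62 with an adjusted p of 0.00567 without F4. Without F6 the adjusted p was 0.146 in edgeR, the highest with a single mouse left out.

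Among the genes of breakdown, Phkg1 (ENSMUSG00000025537, chr5:129863421-129898549 on mm10, minus strand) fell in females. Vehicle-treated females had 506.4 to 853.7 CPM (median 670.3) and the treated females had 208.6 CPM (F10), 297.5 CPM (F6), 402.1 CPM (F8), 436.7 CPM (F2) and 492.2 CPM (F4). No treated female reached the lowest vehicle-treated one, and the log2 fold change was -0.90 (SE 0.20, adjusted p = 0.00246, edgeR), a level 0.534 times that of vehicle. In males the ranges of 537.0 to 773.2 CPM with vehicle and 309.8 to 620.9 CPM with corticosterone overlapped, and the change was -0.44 (SE 0.19, adjusted p = 0.0681, edgeR), with all 6 treated males below the vehicle mean. The difference of the responses was 0.47 (male minus female, 95% interval -0.10 to 1.03, adjusted p = 0.243, edgeR), so that the call in females alone was not shown to be a difference between the sexes. Phkg1 shares 9.68% of its exon bases with Sumf2 on the opposite strand, and its RefSeq start lies inside the annotated span.

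Phkb (ENSMUSG00000036879, chr8:85840959-86061376 on mm10, plus strand) had a log2 fold change of -0.55 (SE 0.19, adjusted p = 0.0384, edgeR) in females and -0.18 (SE 0.18, adjusted p = 0.458, edgeR) in males, neither past the threshold. It ranged from 346.9 to 609.8 CPM in vehicle-treated females and from 211.5 to 518.4 CPM in treated females, with 4 of the 5 below every vehicle-treated female and F4 inside the vehicle range. Pygm (ENSMUSG00000032648, chr19:6384399-6398459 on mm10, plus strand) changed by -0.49 (SE 0.20, adjusted p = 0.0798, edgeR) in females and -0.21 (SE 0.19, adjusted p = 0.401, edgeR) in males. Vehicle-treated females had 5957 to 9910 CPM of Pygm and the treated females 3169 CPM (F10), 4555 CPM (F6), 5248 CPM (F8), 5960 CPM (F2) and 8563 CPM (F4). Treated males had 5174 to 8960 CPM beside 6797 to 9509 CPM in vehicle-treated males, ranges that overlapped. Without F4, Pygm in females had a log2 fold change of -0.70 with an adjusted p of 0.00862 and Phkb -0.78 with an adjusted p of 0.00209. In that fit 6 of the 9 genes passed in place of 2, and the share of all tested genes went from 13.4% to 17.3%. Without F10 the adjusted p-values were 0.193 for Pygm and 0.101 for Phkb in edgeR, the highest with a single mouse left out.

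Pygm, Phkg1 and Phkb varied together from mouse to mouse. Over the deviations of log2 CPM from group means in 23 mice, Pearson's r was 0.92 for Pygm with Phkg1, 0.91 for Pygm with Phkb and 0.86 for Phkg1 with Phkb, values given as a description since the genes share libraries and depth. The same deviations of the 3 genes followed Myh4, the myosin of fast type 2B fibers, with r = 0.95 for Pygm, 0.90 for Phkb and 0.87 for Phkg1, and Ppp1r3a had r = 0.72. Gbe1 varied the other way, with r = -0.64 for Myh4 and 0.80 for the score of 6 slow-fiber markers. It also had r = 0.69 with Myh2, the myosin of type 2A fibers, and 0.71 with Myh1, that of type 2X fibers. Myh4 itself ranged from 13225 CPM in F10 to 57821 CPM in M2, with a log2 fold change of -0.29 in females (adjusted p = 0.459, edgeR) and 0.24 in males (adjusted p = 0.478, edgeR). The sum of the slow-fiber markers ranged from 1.22 to 3935 CPM among vehicle-treated males alone.

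With the Myh4 level as a covariate, chosen after seeing the data, 5 of the 9 genes passed the threshold in males, Pygm (-0.37, adjusted p = 0.000508), Phkg1 (-0.59, adjusted p = 0.000152) and Phkb (-0.32, adjusted p = 0.00740) joining Gbe1 and Ppp1r3c in this edgeR fit, beside 27.3% of all tested genes. In females with the same covariate, 3 of the 9 passed beside 10.3% of all tested genes, Ppp1r3c (2.09, adjusted p = 0.00837), Gbe1 (1.30, adjusted p = 4.30e-05) and Phkg1 (-0.68, adjusted p = 0.000375), while Pygm had -0.26 and an adjusted p of 0.0276. Myh4 was taken as covariate with its r of 0.95 with Pygm, 0.90 with Phkb and 0.87 with Phkg1 already seen. Such a covariate takes up much of the spread of these genes between mice, so their added calls follow in part from its choice. The part of fiber composition in the responses was not tested. The ratio of Phkg1 to Pygm in CPM was 0.0772 to 0.105 in vehicle-treated females and 0.0575 to 0.0766 in treated females, so that within the same mice Phkg1 was lower relative to Pygm with no overlap. In males the corresponding ratios were 0.0687 to 0.0841 and 0.0599 to 0.0766, which overlapped.

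**Figure D4:**
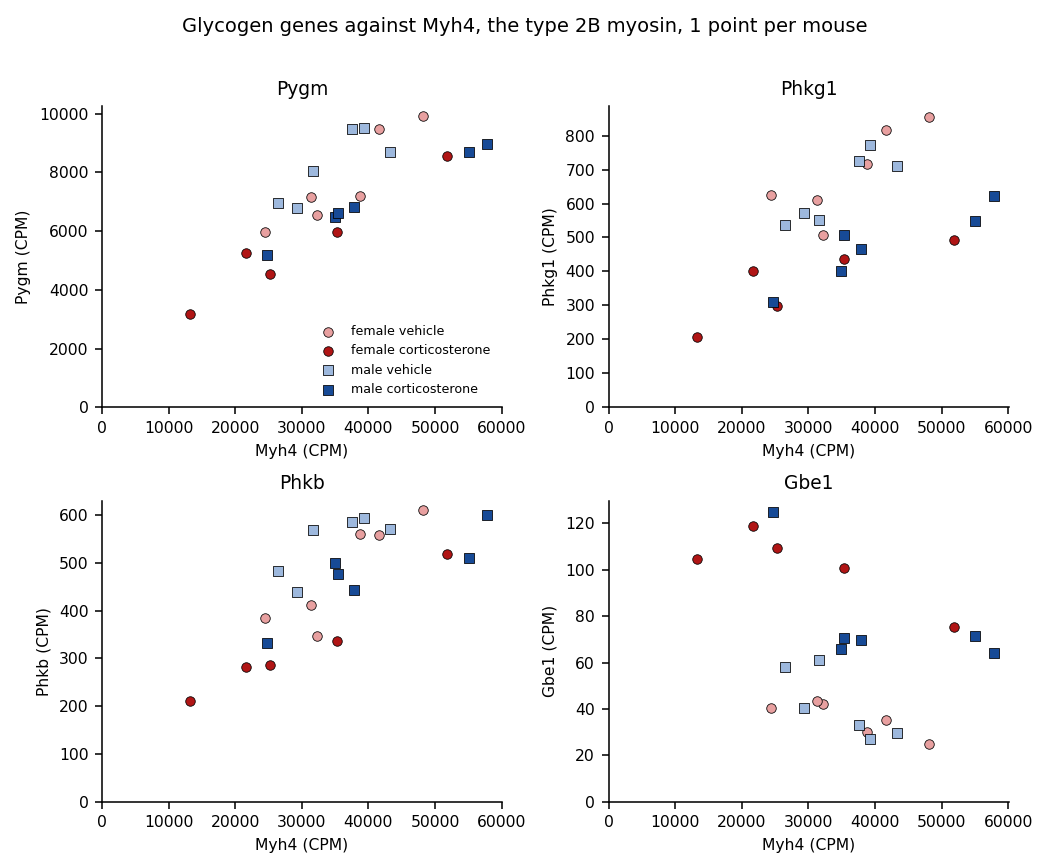
Level of Pygm, Phkg1, Phkb and Gbe1 in CPM (vertical axes, from 0) against Myh4 in CPM (horizontal axes), with 1 point per mouse coloured by group and circles for females. Pygm, Phkg1 and Phkb lie higher in mice with more Myh4 and Gbe1 lies lower, and for Phkg1 and Gbe1 the treated mice are set off from the vehicle-treated ones at the same Myh4 level.

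The genes whose levels were most like 3 of the members were read over the 23 mice, again as a description. For Pygm these were Phka1, another subunit of phosphorylase kinase (r = 0.97), Phkb (r = 0.94) and Gapdh of glycolysis (r = 0.93), and over deviations from group means Pkm of glycolysis (r = 0.97), Phka1 (r = 0.95) and Myh4 (r = 0.95). For Ppp1r3c they were Zbtb16 (r = 0.92), Wbp1l (r = 0.90) and Gm44421 (r = 0.90), and over deviations Wbp1l (r = 0.87), Ran (r = 0.86) and Mkks (r = 0.82). For Gbe1 they were Syn2 (r = 0.91), Pnpla2, a lipase gene (r = 0.90), and Ctnna3 (r = 0.90), and over deviations Echs1 of fatty acid oxidation (r = 0.95), Dhrs4 (r = 0.88) and Lmod2 (r = 0.88).

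Males and females were compared directly under each treatment. With vehicle, 0 of the 9 glycogen genes passed the threshold and 0 had an unadjusted p under 0.05 in edgeR, beside 0.958% of all tested genes past the threshold and 13.2% with such a p, and DESeq2 and limma-voom called 0 as well. With corticosterone, 1 of 9 passed, beside 23.3% of all tested genes. This was Gyg, higher in males by 0.51 on the log2 scale (SE 0.11, adjusted p = 0.00149, edgeR), with 425.4 to 582.9 CPM in treated males and 286.9 to 446.1 CPM in treated females, ranges that overlapped. Without M8 and F10, the mice with most liver transcript, the Gyg difference was 0.44 with an adjusted p of 0.0136. Phkb was higher in treated males by 0.55 without passing the threshold (adjusted p = 0.0289, edgeR). The difference between the responses of the sexes passed the threshold for 0 of 9 genes in edgeR, beside 0.690% of all tested genes, and 1 gene, Gyg, had an unadjusted p under 0.05, as 32.1% of all tested genes did, with a difference of 0.33 (male minus female, adjusted p = 0.136). DESeq2 and limma-voom also called 0 of 9.

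Another 38 genes of glycogen metabolism were read beside these, of which 35 passed the filter. In males 8 of the 35 passed the threshold, 4 higher and 4 lower, and in females 5 passed, 3 higher and 2 lower, beside 26.3% and 13.4% of all tested genes. By role, in males 3 of 6 PP1 genes, 2 of 9 kinases and regulators of glycogen synthase, 1 of 6 other genes of phosphorylase kinase, 1 of 4 protein kinase A genes and 1 of 3 genes of glycogen quality passed, and in females 2 of 4 other breakdown genes, 1 of 6 PP1 genes, 1 of 3 genes of glucose phosphates and 1 of 3 genes of glycogen quality. The median log2 fold change of the 35 genes was -0.10 in males and -0.12 in females.

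Of the catalytic subunits of PP1, Ppp1cb and Ppp1ca rose in males, while Ppp1cc had a log2 fold change of 0.06 (adjusted p = 0.729, edgeR). Ppp1cb had 218.8 to 283.4 CPM with vehicle and 370.6 to 439.8 CPM with corticosterone in males, with a log2 fold change of 0.64 (SE 0.09, adjusted p = 1.08e-05, edgeR). Ppp1ca had 149.4 to 178.9 CPM with vehicle and 223.7 to 265.8 CPM with corticosterone in males, with a log2 fold change of 0.58 (SE 0.08, adjusted p = 1.57e-05, edgeR). In females the changes were 0.27 for Ppp1cb (adjusted p = 0.0377, edgeR) and 0.11 for Ppp1ca (adjusted p = 0.397, edgeR). These subunits serve PP1 in many places in the cell, not glycogen alone. The targeting subunit Ppp1r3e fell in males by 0.71 on the log2 scale (adjusted p = 0.00258, edgeR), at the low level of 1.52 to 2.15 CPM with vehicle and 1.02 to 1.38 CPM with corticosterone.

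Among the kinases that act on glycogen synthase, Gsk3b, a kinase that switches the synthase off, rose in males from a range of 59.7 to 76.3 CPM to one of 92.0 to 137.3 CPM, with a log2 fold change of 0.70 (SE 0.15, adjusted p = 0.00100, edgeR). In females Gsk3b changed by 0.10 (adjusted p = 0.680, edgeR). Prkag2, a regulatory subunit of AMP-activated protein kinase that binds nucleotides, fell in males from 13.1 to 26.9 CPM to 4.37 to 8.89 CPM, a log2 fold change of -1.57 (SE 0.23, adjusted p = 2.19e-05, edgeR). In females it had 10.1 to 22.3 CPM with vehicle and 8.02 to 19.96 CPM with corticosterone, with a change of -0.24 (adjusted p = 0.473, edgeR). The difference of the Prkag2 responses was -1.32 (male minus female, adjusted p = 0.0188, edgeR), which missed the threshold.

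Calm2, 1 of the calmodulin genes that supply a subunit of phosphorylase kinase among many other uses, fell in males from 155.8 to 199.3 CPM to 88.2 to 122.0 CPM (log2 fold change -0.89, SE 0.12, adjusted p = 6.60e-06, edgeR) and changed by -0.26 in females (adjusted p = 0.119, edgeR). Prkar2a, a regulatory subunit of protein kinase A, rose in males by 0.52 (adjusted p = 0.00147, edgeR). Epm2a encodes laforin, a glycogen phosphatase, and fell in both sexes. It had 90.2 to 122.6 CPM with vehicle and 64.3 to 85.8 CPM with corticosterone in males (log2 fold change -0.46, SE 0.12, adjusted p = 0.00408, edgeR), and 81.2 to 126.8 and 48.1 to 78.7 CPM in females (-0.67, SE 0.13, adjusted p = 0.000749, edgeR). Its groups overlapped in neither sex. Pgm2l1, a glucose bisphosphate synthase, fell in females by 0.65 on the log2 scale (adjusted p = 0.00560, edgeR), from 26.0 to 42.7 CPM to 14.1 to 27.3 CPM. For the 35 genes, 0 passed the threshold for a difference between the responses of the sexes in edgeR, 15 had an unadjusted p under 0.05, DESeq2 called 5 and limma-voom called 2, while of all tested genes 32.1% had such a p, DESeq2 called 6.87% and limma-voom 5.31%.

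The 3 genes that rose in females were Pygl, the liver phosphorylase, Pygb, the brain phosphorylase, and Ppp1r3b, the PP1 subunit best known from liver. Pygl had 178.3 CPM in F6, 138.4 CPM in F2 and 112.7 CPM in F10, but 7.80 CPM in F4 and 3.25 CPM in F8, beside 3.13 to 32.8 CPM in vehicle-treated females. Its log2 fold change was 3.02 (SE 0.79, adjusted p = 0.00746, edgeR), carried by 3 of 5 treated females. The same 3 mice had the highest Pygb, at 92.3 CPM in F6, 54.1 CPM in F2 and 44.2 CPM in F10, beside 7.03 to 21.7 CPM in vehicle-treated females, with a log2 fold change of 1.81 (SE 0.44, adjusted p = 0.00443, edgeR). They also had the highest Ppp1r3b, at 17.9 CPM in F6, 16.7 CPM in F10 and 14.1 CPM in F2, with a log2 fold change of 2.12 (SE 0.50, adjusted p = 0.00407, edgeR). The summed adipocyte markers were 4147 CPM in F6, 2079 CPM in F2 and 1808 CPM in F10, the 3 highest of the 23 mice, and 550.8 CPM in F4 and 36.7 CPM in F8. Other lists were also high in some of the same mice. The hepatocyte sum was 2442 CPM in F10 and 1095 CPM in F6 but 48.0 CPM in F2, where F8 had 193.0 CPM. The sum of 4 Schwann cell markers was 195.6 CPM in F10, 166.8 CPM in F2 and 104.8 CPM in F6, beside 38.6 to 154.6 CPM with vehicle. It was 55.9 CPM in F4 and 58.1 CPM in F8. The sum of 4 macrophage markers was 147.6 CPM in F10, 105.3 CPM in F6 and 72.1 CPM in F2, beside 27.4 to 66.1 CPM with vehicle. F4, at 75.8 CPM, lay above F2 in this sum, and F8 had 42.3 CPM. With the hepatocyte marker score as a covariate Pygb (1.77, adjusted p = 0.00955) and Ppp1r3b (1.75, adjusted p = 0.00781) still passed and Pygl (2.79, adjusted p = 0.0164) did not, in edgeR. With the adipocyte marker score as a covariate the log2 fold changes were 0.65 for Pygl (adjusted p = 0.357), 0.65 for Pygb (adjusted p = 0.0939) and 1.15 for Ppp1r3b (adjusted p = 0.0998) in edgeR. This score includes Lep, which itself rose past the threshold with corticosterone in females. The covariate can thus take up part of a treatment effect whatever the content of adipocytes. Without F2, F6 and F10, chosen after seeing the data, Pygl had -0.99, Pygb -0.07 and Ppp1r3b 0.27, on the 2 treated females that remained. The mice left out were those highest in these 3 genes. The smaller values therefore followed from the choice and add nothing to the levels given for each mouse. Of all tested genes, 13.4% passed in females in the main fit and 11.8% with the hepatocyte covariate. With the adipocyte covariate 5.69% passed, and without F2, F6 and F10 0.996%. The part of any cell type in these 3 rises was not tested.

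**Figure D5:**
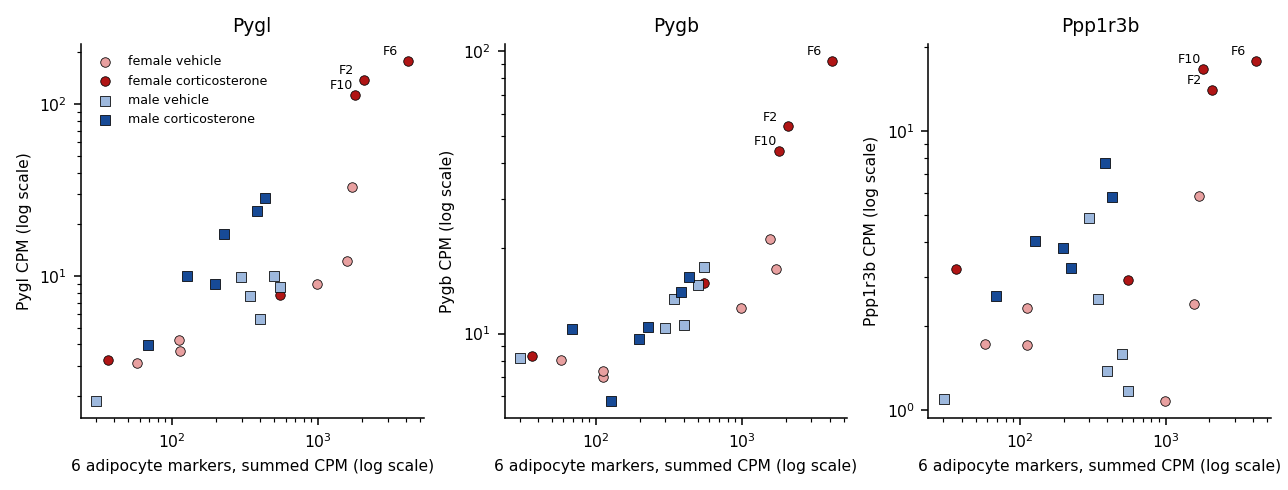
Level of Pygl, Pygb and Ppp1r3b in CPM (vertical axes, log scale) against the summed CPM of 6 adipocyte markers (horizontal axes, log scale), with 1 point per mouse coloured by group and circles for females. F2, F6 and F10 are highest on both axes in each panel, with Pygl between 112.7 and 178.3 CPM.

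Despite these changes Pygm made up at least 96.9% of the summed phosphorylase level per kb in every mouse, and 99.8 ± 0.13% in vehicle-treated females (SD, n = 6). Phkg1 was at least 90.8% of the summed level per kb of Phkg1 and Phkg2 in every mouse. The number of genes past the threshold in females, among the 9 and among all tested genes, also depended on F2, F6 and F10. Without them 0 of 9 passed, beside 0.996% of all tested genes, Gbe1 having 1.41 with an adjusted p of 0.0104 and Phkg1 -0.63 with an adjusted p of 0.140 in edgeR, again with 2 treated females. With the adipocyte covariate, which includes the treatment-raised Lep, 1 of 9 passed, Gbe1, beside 5.69% of all tested genes. Phkg1 had -0.80 and an adjusted p of 0.0180 in this edgeR fit. Without F4, 11 of the 35 other genes passed in females, 4 higher and 7 lower, beside 17.3% of all tested genes, and without M8 and F10 it was 1, beside 8.94%. With each sex fitted alone 0 of the 35 passed in females, beside 4.3% of all tested genes. Without F2, F6 and F10 it was also 0, beside 0.996%. Leaving out F1, F6, F7 or F10 singly left 1 of the 35, and leaving out F2, F9 or F11 left 2, where all tested genes had between 7.69% and 10.4%.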

How the data were processed

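Stranded mRNA libraries of 23 quadriceps muscles were sequenced as 100 bp paired ends. Per the study's methods and processing notes, the authors aligned reads to mm10 with STAR 2.7.3a, counted them by strand on Ensembl genes with HTSeq 0.12.4 and deposited raw counts of read pairs per gene and mouse, without normalisation. The 5 summary entries for unassigned pairs, 10.7% to 15.3% of a library, did not enter totals or tests. Names and positions came from GENCODE on mm10, which matched 55480 of 55573 gene IDs.

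Mice were grouped by labelled sex and treatment. Following the study's filter, a gene needed over 20 normalised counts in 4 or more mice from the same group. The remaining genes went into edgeR's quasi-likelihood test (edgeR 4.0.16, R 4.3.3) with TMM normalisation, as 1 model of the 4 group means, with Benjamini-Hochberg adjustment over 13049 genes and a threshold of 0.01. Log2 CPM values had a prior count of 1. DESeq2 1.42.0, limma-voom (limma 3.58.1), other filters, scalings and thresholds, marker scores as covariates and fits without single mice were alternatives. The scripts were tested on simulated data. At 20904150 to 21984477 counted pairs, 3 counts equal at most 0.166 CPM, which covers counting error only. No replicate pair agreed within sampling noise, and p-values measure the spread between these mice.

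The 9 genes and all lists were chosen with earlier results of these data known. All 9 genes are named. Of 38 other genes of glycogen metabolism, those past the threshold in a sex are named, and for 3 members the 3 genes with the highest Pearson correlation. Markers of muscle, slow, type 2A, type 2X and type 2B fibers, hepatocytes, adipocytes, erythrocytes, Schwann cells, macrophages and fibroblasts were summed as CPM. Marker scores, used for correlations and as covariates, were means of the log2 CPM of a list's genes. The 4 glucocorticoid response genes, the covariates for Myh4 and slow fibers and the fit without F2, F6 and F10 were chosen after seeing the data. Promoter sequences are from RefSeq on GRCm38.p6.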

Additional observations from a re-analysis of the deposited data

Results flagged for a closer look

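Of 84 sets of values (21 glycogen genes in 4 groups), 7 held a mouse far from the rest of its group by Dixon's criterion, where chance alone gives about 1 in 20. Among the 9 glycogen genes this was only Gbe1 of the treated male M10, at 124.8 CPM beside 64.3 to 71.6 CPM in the other 5. M10 also had the lowest Phkg1 of the treated males, at 309.8 CPM. In the vehicle-treated female F5, Pygl was 32.8 CPM beside at most 12.3 CPM and Ppp1r3b was 5.87 CPM beside at most 2.40 CPM, with a summed adipocyte level of 1706 CPM, the highest of the vehicle-treated mice. Ppp1r3b was 4.89 CPM in the vehicle-treated male M9, beside at most 2.50 CPM, where the hepatocyte sum was 1468 CPM. Calm2 was 122.0 CPM in the treated male M2, beside at most 97.6 CPM. Ppp1r3e was 1.52 CPM in the vehicle-treated male M11, beside at least 1.94 CPM. Gsk3b was 108.1 CPM in the vehicle-treated female F9, beside at most 69.3 CPM.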

How the results depend on the processing

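The calls rest on 5 or 6 mice a group, and effects smaller than the spread between mice, such as those of Gys1 and Ppp1r3a, were not detectable here. In all alternatives 0 of the 9 genes passed for the difference of the responses and 0 for males against females with vehicle. Of all tested genes, the same fits called 0.00766% to 12.6% for the difference of the responses. For males against females with vehicle they called 0.348% to 2.37%. The 0 of 9 was thus not far from genes in general and does not show that the sexes were alike. Shares of all tested genes called in the same fit follow in brackets. In males 2 genes passed (26.3%), and 2 to 3 when single mice were left out, 3 by DESeq2 (30.6%) and by limma-voom (31.6%), 1 with an added limit of 1 on the log2 fold change (7.53%) and 5 with the Myh4 covariate (27.3%). Ugp2 was the gene added by both tools, with adjusted p-values of 0.00634 and 0.00228. In females 2 passed (13.4%), and 2 to 6 when single mice were left out, the 6 being without F4 (17.3%). There, 3 passed by DESeq2 and 4 by limma-voom (18.8% each), 1 with each sex fitted alone (4.3%), 1 with the added limit on the fold change (5.61%), 5 at an adjusted p under 0.05 (26.7%), 1 with the adipocyte covariate (5.69%) and 0 without F2, F6 and F10 (0.996%). Between males and females with corticosterone 1 passed (23.3%), and 1 to 2 when single mice were left out, 2 without F4 (25.5%). There, 2 passed by limma-voom (26.3%), 0 with the added limit (7.77%), 2 at 0.05 (39%), 0 without M8 and F10 (10.6%) and 0 without F2, F6 and F10 (1.58%). The cause of these shifts was not tested, except that the fit without F2, F6 and F10 leaves 2 treated females and the added limit is stricter by construction.

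Mouse numbers are shared only between the sexes, so the responses within a sex could not be fitted with them as a block. With the replicate block, males against females with corticosterone gave 2 calls, Gyg and Phkb (17.3% of all tested genes). For the difference of the responses 0 of the 9 genes passed (0.743%), as for males against females with vehicle (1.05%). The Ugp2 difference of responses was 0.045 with this block. Of 11 pairs of equal numbers, 7 had a correlation of deviations over 0.1, in a range of -0.38 to 0.48 with a median of 0.24. The numbers were not taken as pairs in the main fit, and whether they mark a shared factor was not tested.

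Some log2 fold changes turned sign, none of which had passed the threshold. For Gys1 in males the value was 0.0065 by limma-voom, 0.049 without M8 and F10, 0.049 with the hepatocyte covariate and -0.058 to 0.053 without single mice. For Gys1 in females it was -0.040 by limma-voom and -0.055 to 0.16 without single mice, and for its difference of responses 0.046 and -0.18 to 0.040. The Ugp2 difference of responses was 0.14 by limma-voom, 0.0023 with the slow-fiber covariate and -0.17 to 0.10 without single mice. Ugp2 in males against females with corticosterone was -0.046 with the adipocyte covariate and -0.067 to 0.21 without single mice. Without F2, F6 and F10, Ppp1r3a was 0.078 in females, the differences of responses were -0.12 for Ppp1r3a and -0.027 for Pygm, and males against females with corticosterone gave -0.15 for Gys1, -0.34 for Ugp2 and -0.025 for Ppp1r3a. With the Myh4 covariate the differences of responses were -0.10 for Ppp1r3a, -0.11 for Ppp1r3c and -0.11 for Pygm, in place of 0.46 for Ppp1r3c and 0.28 for Pygm without it.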
